A study of Rattus norvegicus with 6 samples.

Results

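Irx1, Irx2, Pou3f4, Ttr, Gc, Smarca1 and Dpp4 were followed in whole pancreatic islets of young and adult rats as regulators and markers of the glucagon-producing alpha cell. The genes were chosen by symbol, and all 7 were found among the 17055 gene rows of the deposited count tables. Gcg, which encodes glucagon, was set beside them as the alpha-cell reference. Polyadenylated RNA was sequenced from islets of control Sprague-Dawley rats at postnatal day 10, called P10 (3 biological replicates, numbered 1, 3 and 4), and from control males at 3 months, called adult (3 biological replicates, numbered 1, 2 and 3). The labels give a sex for the adults and none for the P10 animals, and they do not say whether islets of several pups were pooled. Age and sex therefore cannot be told apart, which touches in particular the X-linked Pou3f4 and Smarca1.

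Alpha cells are one of the endocrine cell types of the islet, and they secrete glucagon, the hormone that raises blood glucose between meals. Their identity is held by transcription factors, among them members of the Iroquois and POU families, while transthyretin, vitamin D binding protein and DPP4 are products by which the cell is often recognised. In whole islets the alpha cell is a minority beside the insulin-producing beta cell, so each level below is a level in the mixture.

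The libraries held between 3307415 and 6477825 reads assigned to genes. Insulin genes took 28.3% to 33.6% of these reads at P10 and 46.6% to 52.3% in adults. Gcg was counted in all 6 libraries, each labelled as islets. Levels are counts scaled to the library size (CPM, the value per 1e6 reads) after scaling by trimmed mean of M values, a composition factor that keeps the growing insulin share from lowering every other gene. When libraries were scaled by their totals alone, the median log2 fold change of all tested genes moved from -0.03 to -0.52. Values of single libraries are listed throughout in the order of replicates 1, 3 and 4 at P10 and 1, 2 and 3 in adults. Of 10124 genes tested with edgeR's quasi-likelihood test, 26.3% differed between the ages at a false discovery rate (FDR) under 0.05, 12.5% being higher in adults and 13.8% lower.

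Of the 7 genes, 2 fell from P10 to adult, Dpp4 and Smarca1, 0 rose, and 5 did not pass the test, a count to be read against those background shares. At an unadjusted p under 0.05 in edgeR 3 were lower and 0 higher, and DESeq2 also called 2 lower and 0 higher. Their median log2 fold change was -1.06, beside -0.03 over all tested genes. Levels of the 2 ages did not overlap for 5 of the 7, lower in adults for Pou3f4, Ttr, Smarca1 and Dpp4 and higher for Gc, where 42.3% of all tested genes did not overlap in either direction. In RNA from whole islets, fewer alpha cells, less RNA of a gene per alpha cell and a change in its reads from other cell types cannot be told apart.

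The glucagon gene and Dpp4 are next to each other on rat chromosome 3 in RefSeq's GRCr8 annotation, and both were lower in adult islets, while Gc, on chromosome 14, was not. Smarca1 was also called lower in adults, whereas Irx1, Irx2, Pou3f4 and Ttr, like Gc, were not called. The 250 bases before the start of each of Gcg, Dpp4 and Gc are shown as examples picked by hand. They were taken from RefSeq's GRCr8 promoter table, whereas the reads were counted on the older build rn5, and each is written in the gene's own direction. Capitals mark matches to the motifs named in the next paragraph.

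Gcg, chr3:67531534-67531783, minus strand: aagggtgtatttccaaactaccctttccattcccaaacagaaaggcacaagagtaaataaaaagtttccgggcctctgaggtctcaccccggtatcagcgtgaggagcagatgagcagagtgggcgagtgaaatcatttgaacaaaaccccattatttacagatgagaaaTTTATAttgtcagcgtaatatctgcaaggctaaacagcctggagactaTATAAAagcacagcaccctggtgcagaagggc

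Dpp4, chr3:67452423-67452672, minus strand: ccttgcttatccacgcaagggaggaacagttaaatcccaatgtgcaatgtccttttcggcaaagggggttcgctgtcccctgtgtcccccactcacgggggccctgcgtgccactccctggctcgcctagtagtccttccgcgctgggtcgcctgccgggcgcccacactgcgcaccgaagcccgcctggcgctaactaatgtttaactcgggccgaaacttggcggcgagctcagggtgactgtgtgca

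Gc, chr14:18916005-18916254, plus strand: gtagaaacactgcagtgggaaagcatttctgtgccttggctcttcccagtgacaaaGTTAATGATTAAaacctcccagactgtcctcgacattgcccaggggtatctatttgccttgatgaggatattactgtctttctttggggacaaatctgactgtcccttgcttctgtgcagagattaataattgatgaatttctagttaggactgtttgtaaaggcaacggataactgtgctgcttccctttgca

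In each sequence 6 motifs were searched on both strands. They were the TATA box written as TATAAA, a 12-letter HNF1 motif that is not a palindrome, and the forkhead motif written as TGTTTAC. The HNF1 motif allowed any base at a single place. The others were the octamer bound by POU factors written as ATGCAAAT, the cAMP response element as TGACGTCA and the GC box as GGGCGG. None of the 6 contains another. The Gcg sequence, with 44.8% G and C, held the TATA box ending 27 bases before the start and its reverse complement, written TTTATA in this direction, further upstream. The TATA box on either strand was present in 13.1% of 27457 RefSeq promoters of the same length. The Gc sequence, with 43.2% G and C and 2 CpG, held the HNF1 motif as GTTAATGATTAA, beginning 194 bases before the start, and that motif was present in 0.0546% of the promoters. The Dpp4 sequence had 62.4% G and C and 19 CpG, beside medians of 52.0% and 6, and held none of the 6 motifs in this window.

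The sequences before Irx1 and Irx2 were the richest of the 7 in CpG, with 23 each, 72.8% and 71.6% G and C, and 4 and 3 copies of the GC box. At least 1 such copy was present in 32.4% of all promoters. Smarca1 held 1 copy of it, and its sequence had 60.4% G and C and 7 CpG. The Pou3f4 sequence had 58.8% G and C with 14 CpG, and that of Ttr 40.4% with 3. A match is only a match of letters and was not tested as a site.

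Irx1 and Irx2 encode Iroquois homeodomain transcription factors, which lie side by side on rat chromosome 1 and are expressed in developing alpha cells. Irx1 was measured at 22.2, 14.6 and 20.1 CPM at P10, and at 20.7, 19.8 and 22.0 CPM in adults. The adult libraries lay within the range of the P10 libraries, of which replicate 3 was the lowest. The means were 19.0 ± 3.97 CPM at P10 and 20.9 ± 1.12 CPM in adults (SD, n = 3 each). The log2 fold change of 0.14 ± 0.25 (SE) did not pass edgeR's quasi-likelihood test (FDR 0.731), and its sign turned when libraries were scaled by totals alone (-0.34) or without P10 replicate 3 (-0.014).

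Irx2 varied far more within each age. It stood at 4.20, 12.9 and 19.9 CPM at P10 and at 21.8, 13.2 and 7.53 CPM in adults. The ages overlapped, and the lowest library of each age was also the deepest of its age, at 6477825 and 6280144 reads; whether depth had a part in it was not tested. The log2 fold change of Irx2 was 0.20 ± 0.49 (edgeR's quasi-likelihood test, FDR 0.807), and its sign turned with totals alone (-0.30), without P10 replicate 1 (-0.22) and without adult replicate 1 (-0.25).

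Irx2 and Irx1 did not keep a fixed proportion between libraries. For every 1000 Irx1 reads there were 189, 888 and 988 Irx2 reads at P10, and 1050, 667 and 342 in adults. The log2 ratio differed by 0.18 between the ages (exact two-sided permutation test, p = 0.8, where 3 libraries against 3 can give no p below 0.1). The proportion was lowest in the same P10 and adult libraries in which Irx2 was lowest.

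The remaining Iroquois and POU3 genes had few or no counted reads. Of 8 such relatives looked for, 7 had a row and none had enough reads to be tested. Irx4, Irx6 and Pou3f3 had 0 reads in all 6 libraries, against a floor of 3 reads that corresponds to 0.407 to 1.10 CPM in a library. Irx3 had 19 reads over the P10 libraries and 5 over the adult ones, Pou3f2 had 22 and 5, Pou3f1 had 5 and 3, and Irx5 had 2 and 0. Irx1, Irx2 and Pou3f4 were the members of these families with enough reads to be tested. A row at 0 does not by itself show absence. Col1a2 also had 0 reads in all 6 libraries, where Col1a1, another fibroblast marker, averaged 1737 CPM at P10.

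Pou3f4, also known as Brn4, encodes a POU-domain transcription factor that binds the glucagon promoter. It was measured at 11.7, 18.9 and 12.4 CPM at P10, and at 5.53, 11.0 and 4.59 CPM in adults. Every adult library was below every P10 library, but adult replicate 2 came within 1 CPM of P10 replicate 1. The means were 14.3 ± 3.97 and 7.04 ± 3.46 CPM (SD, n = 3 each), a log2 fold change of -1.06 ± 0.41 that did not pass edgeR's quasi-likelihood test (FDR 0.0671). The value passed under totals alone (-1.58, FDR 0.00518), without P10 replicate 1 (-1.19, FDR 0.0487) and without adult replicate 2 (-1.51, FDR 0.0277).

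Smarca1 encodes SNF2L, one of the ATPases that drive ISWI chromatin remodelling complexes. Its levels were 14.9, 12.0 and 10.7 CPM at P10 and 5.19, 5.50 and 3.12 CPM in adults. The ages did not overlap, and the highest adult library lay far below the lowest P10 library. Smarca1 fell 2.79-fold, from 12.5 ± 2.16 to 4.60 ± 1.29 CPM (SD, n = 3 each), a log2 fold change of -1.48 ± 0.41 (edgeR's quasi-likelihood test, FDR 0.0146), and 7.65% of tested genes fell further. Without adult replicate 3, the lowest library, the log2 fold change was -1.23 and the FDR 0.0532.

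Of 12 genes for ISWI remodeller subunits, 10 were tested, of which 2 rose, 3 fell and 5 did not pass, with a median log2 fold change of -0.20. The counts were not stable, with 0 higher and 5 lower under totals alone, 0 and 4 under totals without the insulin genes, and 1 or 0 higher whichever single library was left out; 1 was lower without P10 replicate 1 or adult replicate 2, and 2 without adult replicate 3. Smarca5, the paralog that encodes the other ISWI ATPase SNF2H, stood at 37.1 ± 12.8 CPM at P10 and 33.9 ± 9.20 CPM in adults (SD, n = 3 each; log2 fold change -0.12, edgeR's quasi-likelihood FDR 0.769). Chrac1 and Pole3, which encode the small histone-fold subunits of the CHRAC complex, fell 2.17-fold and 2.16-fold (FDR 0.00198 and 0.0138 in the same test). Baz2a, which encodes the large subunit of the nucleolar remodelling complex, rose 1.38-fold (edgeR FDR 0.0228), and its log2 fold change turned to -0.040 with totals alone. The call of Pole3 was lost without P10 replicate 1 (FDR 0.0723) or adult replicate 2 (FDR 0.0517). That of Baz2a was lost without P10 replicate 1 (FDR 0.0548), adult replicate 2 (FDR 0.0883) or adult replicate 3 (FDR 0.0537). Baz2a also lost its call under totals without the insulin genes (FDR 0.0566). With the replicate number as a block neither gene passed (FDR 0.103 for Pole3 and 0.155 for Baz2a).

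Ttr encodes transthyretin, the carrier of thyroxine and, with retinol-binding protein, of retinol. Dpp4 had fewer reads in each adult library, but over all 6 libraries Ttr had the fewest of the 7 genes. Ttr was counted with 56, 47 and 26 reads at P10 and 11, 12 and 8 reads in adults. These gave 7.59, 6.98 and 6.31 CPM at P10 and 3.80, 4.40 and 1.47 CPM in adults, so the ages did not overlap and adult replicate 3 stood lowest. The log2 fold change of -1.17 ± 0.56 did not pass edgeR's quasi-likelihood test (FDR 0.140), and it passed under totals alone (-1.67, FDR 0.0255). Pooled over libraries, the P10 level was 2.53 times the adult level, with a 95% exact interval of 1.70 to 3.87 that covers counting error only. Whether the rn5 annotation or the removal of reads that aligned to several places lowered the Ttr counts was not tested.

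Gc encodes the vitamin D binding protein of plasma, which alpha cells also make. With 1158 to 2677 reads in a library it was the best counted member. Gc was measured at 320.3, 397.8 and 381.6 CPM at P10 and at 400.5, 442.8 and 470.0 CPM in adults. The lowest adult library lay just above the highest P10 library, with no overlap. The means of 367 ± 40.8 and 438 ± 35.1 CPM (SD, n = 3 each) gave a log2 fold change of 0.26 ± 0.12 that did not pass edgeR's quasi-likelihood test (FDR 0.141) and that turned to -0.24 with totals alone.

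Transport proteins for the same ligands, and plasma proteins otherwise known from liver, followed other courses. Of 13 genes for retinol, thyroxine and vitamin D handling, 8 were tested, of which 2 rose, 1 fell and 5 did not pass, with a median log2 fold change of 0.30; 3 fell with totals alone and 2 without P10 replicate 1. Vdr, the vitamin D receptor, rose 3.06-fold and Thrb, a thyroid hormone receptor, rose 2.72-fold (FDR 0.000116 and 0.000272, edgeR's quasi-likelihood test). Rbp4, which encodes the plasma retinol carrier bound by transthyretin, had 35.7 ± 6.96 CPM at P10 and 25.7 ± 2.68 CPM in adults (SD, n = 3 each) and did not pass in the edgeR test (FDR 0.124).

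Of 15 genes for liver plasma proteins, 7 were tested, of which 5 rose and 2 fell, with a median log2 fold change of 2.37. Fgb, a fibrinogen chain, rose 11.4-fold from 90.7 to 1038 CPM, and Hpx, the haem carrier hemopexin, rose 39.7-fold from 2.72 to 111 CPM (edgeR's quasi-likelihood FDR 9.21e-10 and 1.31e-09). Tf, the iron carrier transferrin, fell 5.61-fold (edgeR FDR 2.68e-05), or 9.43-fold without adult replicate 3. Of the 2 liver genes that fell, 1 remained called without P10 replicate 3, P10 replicate 4, adult replicate 1 or adult replicate 3. Among the listed genes with too few reads to be tested, Afp and Apoa2 had 0 reads in all libraries. Albumin (Alb), also not tested, had 33 reads over the P10 libraries and 9 over the adult ones. Other untested genes had more adult reads, with 13 and 27 for Apoh and 0 and 15 for Vtn.

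Dpp4 encodes dipeptidyl peptidase 4, the membrane protease that inactivates the incretins GLP-1 and GIP. It was counted with 64, 55 and 48 reads at P10 and with 9, 2 and 6 reads in adults. The corresponding levels were 8.68, 8.17 and 11.7 CPM at P10 and 3.11, 0.733 and 1.10 CPM in adults. Every adult library lay below every P10 library, and adult replicate 2, with 2 reads, was below the floor of 3.

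Dpp4 fell 5.84-fold, from 9.50 ± 1.88 to 1.65 ± 1.28 CPM (SD, n = 3 each), the largest fall of the 7 genes. The log2 fold change was -2.55 ± 0.59 (edgeR's quasi-likelihood test, FDR 0.00480), and 2.64% of tested genes fell further. The pooled reads, 167 against 17, gave a ratio of 5.97 with a 95% exact interval of 3.62 to 10.5 that covers counting error only. Adult replicate 1 held 9 of the 17 adult reads, and without it the fitted fall was 9.67-fold.

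**Figure D1:**
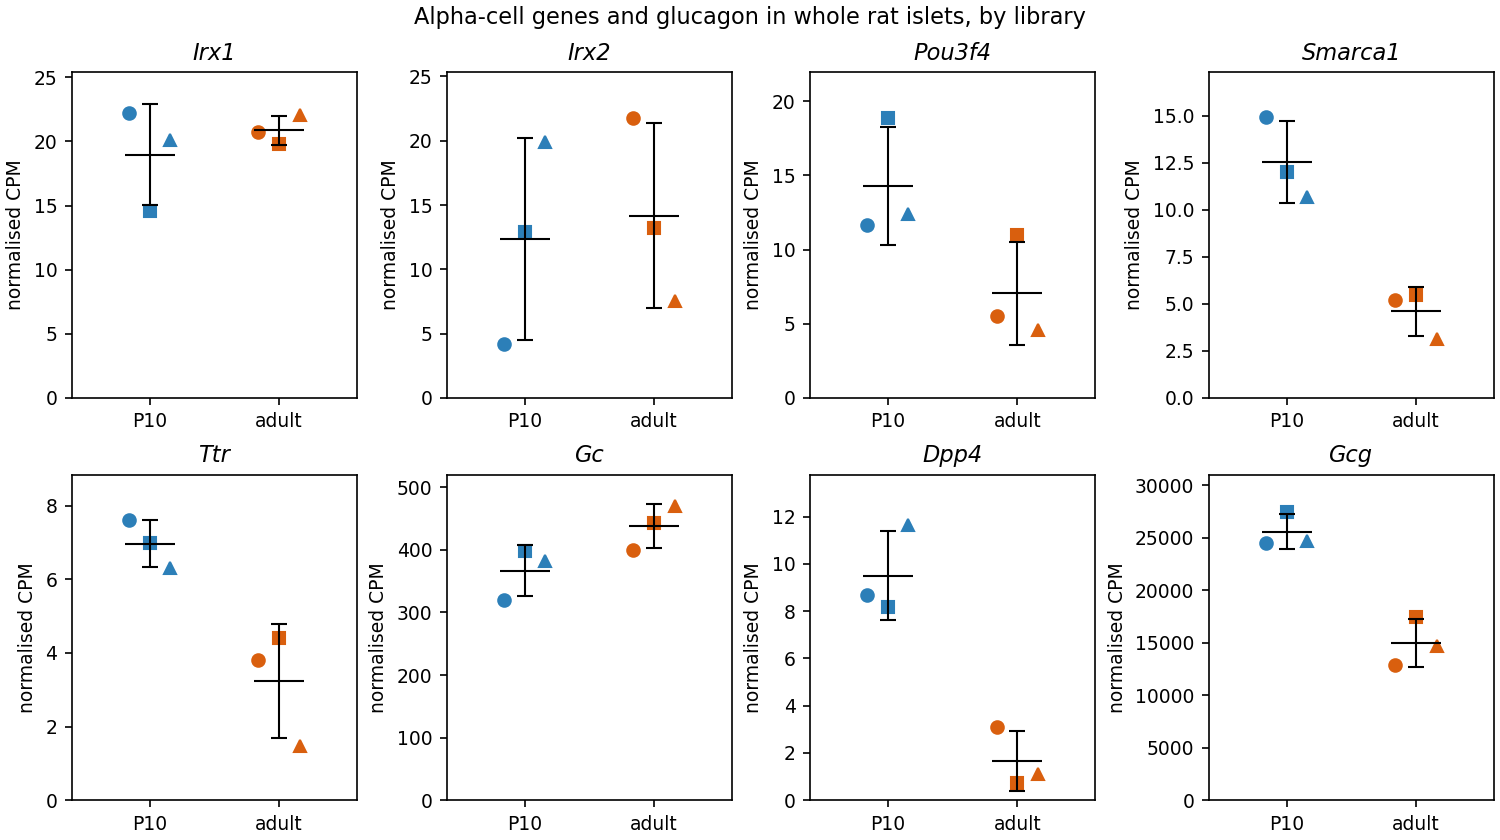
Normalised CPM (vertical axis, from 0) of the 7 genes and of Gcg in each library, P10 on the left and adult on the right of every panel. Circles, squares and triangles are replicates 1, 3 and 4 at P10 and 1, 2 and 3 in adults, and bars are the mean ± SD; the ages overlap for Irx1 and Irx2 and are apart in the other 6 panels.

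Of 12 genes for related peptidases and for the incretin and glucagon peptides' receptors, 9 were tested, of which 4 rose, 1 fell and 4 did not pass, with a median log2 fold change of 0.28. With totals alone the balance turned, to 2 higher and 3 lower. Gcgr, the glucagon receptor, rose 6.54-fold from 14.9 ± 8.25 to 93.8 ± 8.75 CPM (SD, n = 3 each), and Glp1r, the GLP-1 receptor, rose 1.86-fold (edgeR's quasi-likelihood FDR 4.24e-06 and 0.000556). The gene that fell was Fap, which encodes fibroblast activation protein, the closest relative of DPP4.

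Fap had 42, 42 and 16 reads in the P10 libraries and 1, 0 and 0 in the adult ones, a pooled ratio of 60.7 with a 95% exact interval of 10.7 to 2422, for counting error only (edgeR's quasi-likelihood FDR 0.00121). Without adult replicate 1, which held the single adult read, the adult level was at least 14.95-fold lower, taking a floor of 3 reads over the remaining adult libraries, and without adult replicate 3 the pooled ratio was 30.8.

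Markers of other cell types moved over the same ages, and their part in the falls of Dpp4, Smarca1 and Fap was not tested. Summed over 8 fibroblast markers, the level was 2502 to 3197 CPM at P10 and 243 to 345 CPM in adults, with 6 of 7 tested markers lower and Col1a2 at 0 in all libraries. Why Col1a2 had 0 reads was not tested. Over 5 duct markers the sum was 856 to 915 CPM at P10 and 30.4 to 43.0 CPM in adults, with 3 of 4 tested markers lower. Over 7 endothelial markers it was 124 to 178 and 88.5 to 136 CPM, with 1 of 7 lower.

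The summed leukocyte and acinar markers overlapped between the ages. Over 8 leukocyte markers the sum was 103 to 234 CPM at P10 and 89.1 to 154 CPM in adults, with 0 of 6 tested markers called by edgeR or DESeq2, 0 at an unadjusted p under 0.05, and Cd3e at 0 in the adults. Over 8 acinar markers the sum was 2391 to 3416 and 968 to 3834 CPM, with 3 higher and 2 lower in edgeR and 2 higher and 0 lower in DESeq2. Adult replicate 3 stood apart in them, with Prss1 at 941 CPM against 195 and 201 in the other adults and Cel at 335 against 60.5 and 56.8. In that library Smarca1, Ttr, Pou3f4 and Irx2 were lowest among the adults, Irx1 and Gc were highest, and Dpp4 and Gcg lay between. The values without it were given above for Smarca1, and those of Pou3f4 (-0.79), Ttr (-0.76) and Irx2 (0.54) did not pass. The sum over 8 beta-cell markers was 227908 to 297159 CPM at P10 and 538705 to 671884 CPM in adults, with 6 of 8 higher.

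Of the remaining endocrine markers, Ppy of the PP cell was higher in adults (3152 to 5626 CPM against 1623 to 1876) and Ghrl of the epsilon cell was lower (7.26 to 12.5 CPM against 117 to 143). The sum over 4 delta-cell markers was 905 to 1207 CPM at P10 and 1187 to 1274 CPM in adults, with 0 of 3 tested markers called by edgeR or DESeq2, though 1 was higher and 1 lower at an unadjusted p under 0.05. Schwann cell and neuron markers summed to 95.4 to 136 and 106 to 121 CPM, with 2 of 4 tested lower. Tubb3 made up most of that sum, at 57.3 to 75.9 CPM at P10 and 86.5 to 90.9 CPM in adults, and did not pass. The lower ones were S100b, from 10.8 to 0.536 CPM, and Gap43, from 25.6 to 14.1 CPM.

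Gcg itself was measured at 24514, 27506 and 24733 CPM at P10 and at 12843, 17452 and 14654 CPM in adults. The ages were far apart relative to the spread within each. Gcg fell 1.71-fold, from 25584 ± 1668 to 14983 ± 2322 CPM (SD, n = 3 each; log2 fold change -0.77 ± 0.11, edgeR's quasi-likelihood FDR 0.000126). Its fitted change lay between those of the Iroquois genes and Gc on one side and those of Pou3f4, Ttr, Smarca1 and Dpp4 on the other.

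**Figure D2:**
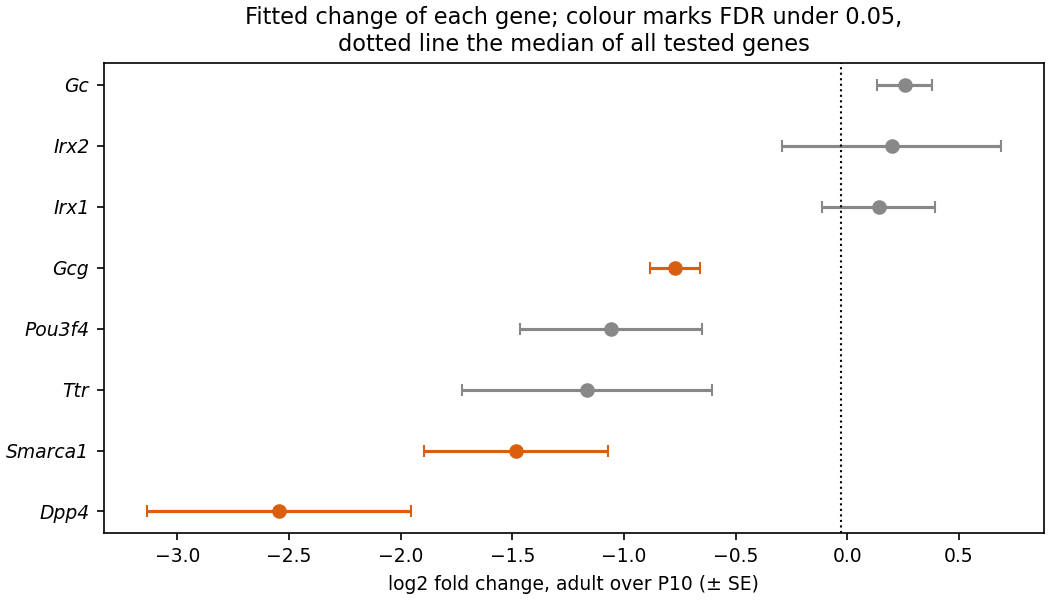
Log2 fold change of adult over P10 (horizontal axis) with its SE for each gene, in order of the change; coloured points passed the test (FDR under 0.05). Dpp4 (-2.55), Smarca1 (-1.48) and Gcg (-0.77) are coloured, and the dotted line is the median of all tested genes (-0.03).

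Each gene was next set beside Gcg within a library, as reads per 1000 Gcg reads, a ratio that needs no scaling between libraries. Higher in adults without overlap were 2 of the 7, Irx1 and Gc, where 54.0% of the other tested genes were; lower without overlap were 2, Smarca1 and Dpp4, where 6.19% were. The other 3 overlapped. With 3 libraries against 3 the exact permutation test can give no p below 0.1, which becomes 0.2 after adjustment over the 8 ratios tested, so none could pass.

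Relative to Gcg, Irx1 stood at 0.907, 0.529 and 0.815 reads per 1000 at P10 and at 1.62, 1.13 and 1.50 in adults, a 1.92-fold higher ratio in adults (exact permutation p = 0.1). Gc stood at 13.1, 14.5 and 15.4 per 1000 at P10 and 31.2, 25.4 and 32.1 in adults, a 2.06-fold higher ratio (exact permutation p = 0.1). Neither gene passed the test on its own level, and Gcg was lower in adults. Irx2 gave 0.172, 0.470 and 0.805 per 1000 at P10 and 1.70, 0.756 and 0.514 in adults, with overlap and an exact permutation p of 0.3.

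For Pou3f4 and Ttr the ratio to Gcg overlapped between the ages. Pou3f4 stood at 0.476, 0.686 and 0.501 per 1000 Gcg reads at P10 and 0.431, 0.630 and 0.313 in adults, a log2 difference of -0.29 (exact permutation p = 0.4). Ttr stood at 0.310, 0.254 and 0.255 at P10 and 0.296, 0.252 and 0.1002 in adults, a log2 difference of -0.42 (exact permutation p = 0.7) that became 0.051 without adult replicate 3. Overlap does not show that the ratios were equal.

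The ratios of Smarca1 and Dpp4 to Gcg were lower in every adult library than in any P10 library. Smarca1 stood at 0.609, 0.438 and 0.432 per 1000 at P10 and 0.404, 0.315 and 0.213 in adults, 1.58-fold lower (exact permutation p = 0.1). Dpp4 stood at 0.354, 0.297 and 0.471 per 1000 at P10 and 0.242, 0.0420 and 0.0752 in adults, 3.60-fold lower (exact permutation p = 0.1). With the mean log2 count of 5 alpha-cell genes, Gcg among them, as the reference in place of Gcg, Pou3f4 (-1.08), Ttr (-1.21), Smarca1 (-1.45) and Dpp4 (-2.64) were lower without overlap, while Irx1 (0.15), Irx2 (0.33) and Gc (0.25) overlapped.

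**Figure D3:**
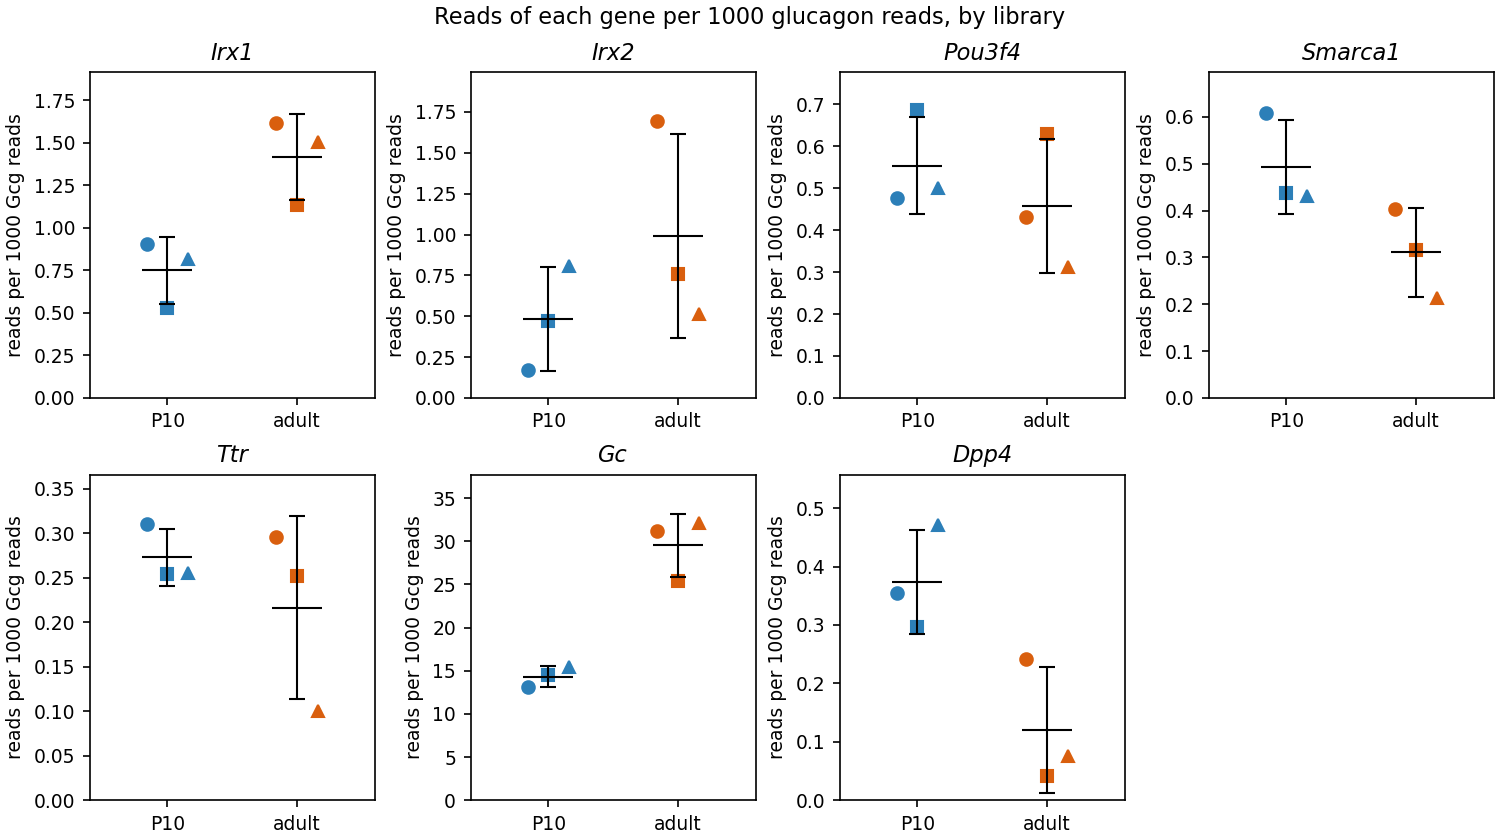
Reads of each gene per 1000 Gcg reads in the same library (vertical axis, from 0), P10 and adult, with symbols for replicates as in the plot of CPM and bars for the mean ± SD. Irx1 and Gc are higher in all adult libraries, Smarca1 and Dpp4 lower in all, and Irx2, Pou3f4 and Ttr overlap.

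Other genes known from alpha cells went both ways. Of 24 listed with Gcg, 22 were tested, of which 5 rose, 7 fell and 10 did not pass, with a median log2 fold change of -0.37; with totals alone 3 were higher and 10 lower. Higd1a, which encodes a mitochondrial protein induced by hypoxia, fell 2.52-fold from 102 to 41.3 CPM, and Pcsk2, the convertase that releases glucagon from its precursor and is also made in beta cells, rose 2.47-fold from 1275 to 3156 CPM (edgeR's quasi-likelihood FDR 0.000308 and 3.00e-07).

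Named after their values were seen, the amino acid transporters Slc38a5 and Slc7a2, part of the alternative reference, rose 2.31-fold and 1.86-fold (edgeR's quasi-likelihood FDR 5.08e-06 and 0.00338); Slc7a2 did not pass with totals alone (1.31-fold, FDR 0.115).

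Of the 12 tested regulators shared by islet endocrine cells, 5 rose, 0 fell and 7 did not pass, with a median log2 fold change of 0.37. DESeq2 also called 5 higher and 0 lower, and 1 was lower at an unadjusted p under 0.05 in edgeR. The zinc-finger factor St18 rose 1.97-fold and the basic helix-loop-helix factor Neurod1 rose 1.54-fold (edgeR's quasi-likelihood FDR 6.49e-05 and 0.00118). With totals alone 1 was higher and 2 lower, and Neurod1 did not pass (log2 fold change 0.13, FDR 0.506). With totals without the insulin genes 3 were higher, as without P10 replicate 3 or adult replicate 3, and without adult replicate 1 there were 2.

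**Figure D4:**
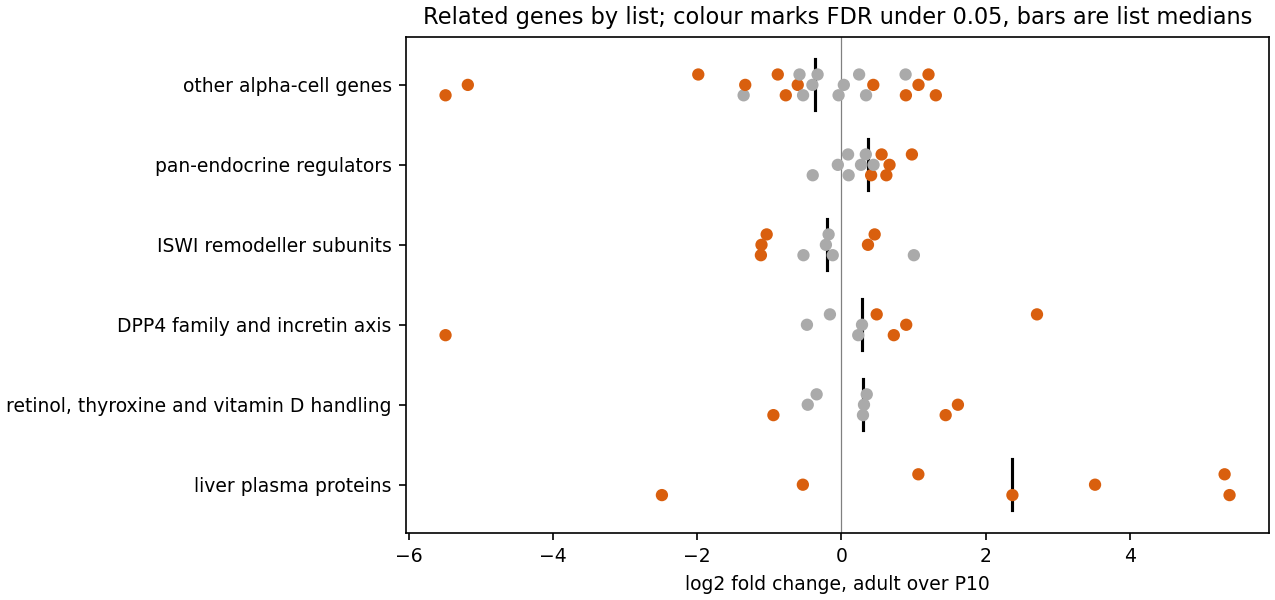
Log2 fold change of adult over P10 (horizontal axis) for the tested genes of 6 related lists, 1 point a gene, with coloured points at an FDR under 0.05 and a vertical bar at each list's median. The medians run from -0.37 for other alpha-cell genes to 2.37 for liver plasma proteins, and points are spread vertically only to keep them apart.

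The genes next to each member on the chromosome were looked up in RefSeq's GRCr8 table, 2 on each side. Of 24 neighbours that were no members, 15 had a row and 6 had enough reads to be tested, of which 1 rose and 1 fell. Both lay in the Dpp4 and Gcg interval on chromosome 3, where the order is Tbr1, Slc4a10, Dpp4, Gcg, Fap and Ifih1. Dpp4, Gcg and Fap, 3 adjacent genes, were lower in adults, whereas Ifih1, a sensor of viral RNA, rose from 10.9 ± 3.41 to 20.3 ± 3.50 CPM (SD, n = 3 each; log2 fold change 0.88, edgeR's quasi-likelihood FDR 0.0451), a call lost in 9 of 13 alternatives, among them leaving out any single library but P10 replicate 1 (FDR 0.0563 to 0.164). Slc4a10, a bicarbonate transporter, had 11 reads over the P10 libraries and 40 over the adult ones, and Tbr1 had 0.

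Beside the other members, Ndufs6, next to the Iroquois genes, gave a log2 fold change of -0.46 (edgeR's quasi-likelihood FDR 0.254), and Irx4, between Ndufs6 and Irx2, had 0 reads. B4galt6 beside Ttr gave 0.27 (FDR 0.302) and Slc4a4 beside Gc gave 0.35 (FDR 0.538), both with signs that turned under totals alone (-0.22 and -0.14). Ocrl, the X-linked neighbour of Smarca1, gave -0.98 (edgeR FDR 0.166), but passed as lower without adult replicate 2 (-1.88, FDR 0.0164) and with totals alone (-1.50, FDR 0.0196). The thinly counted neighbours were Apln with 45 and 7 reads over the P10 and adult libraries, Adamts3 with 19 and 2, Npffr2 with 0 and 11, and Dck with 30 and 17, while Dsg3 and Actrt1 had 0.

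The tested genes whose levels followed each member most closely over the 6 libraries were found by the root mean square distance of centred log2 CPM, given here as a description. Each member averaged at least 5 CPM, the minimum for this search, and the genes found had no such minimum beyond the filter for the test. Gc was followed by Myh10 (0.0409) and Scgn (0.0487), which encode a non-muscle myosin and the calcium-binding protein secretagogin. Irx1 was followed by Cdc5l (0.0381) and Rilpl2 (0.0443), and Irx2, with its wide spread, by Syt2 (0.190) and Rora (0.192). Pou3f4 was followed by Heatr2 (0.177) and Aldh1a1 (0.186), a retinal dehydrogenase that was also among the listed alpha-cell genes.

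Smarca1 was followed most closely by Efemp2 (0.0893), which encodes an extracellular matrix protein, and RGD1561909 (0.0966). The nearest to Ttr were Acot2 (0.0723) and Calhm2 (0.122). Dpp4 was followed less closely, by Il17rd (0.224) and Gjb1 (0.234), the latter a gap junction protein. Both were near the floor in adults, with 56 reads over the P10 libraries and 3 over the adult ones for Il17rd. Gjb1 had 62 and 5. Syt2, the nearest to Irx2, was also thinly counted, with 34 and 31. All these distances rest on the same 6 libraries, which differ in depth and in age.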

How the data were processed

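RNA-seq of islets from P10 and adult rats was analysed, 3 libraries each. The deposited values are raw counts of reads per gene symbol, made by the authors with Bowtie2, TopHat2 2.0.10 and HTSeq on build rn5, per the submitters' processing notes, from single-end libraries. Per the labels' protocols strand was lost in library making, so reads of antisense partners cannot be told apart. Reads that aligned to several places were left out of the counts, 23.4% to 27.7% at P10 and 15.1% to 17.8% in adults. Reads on overlapping genes were also left out, 0.391% to 0.474% at P10 and 0.319% to 0.374% in adults. These shares come from the 5 counter lines of each library, and those lines entered no library size. Whether the difference in these shares between the ages had a part in any change was not tested. A whole-series table with 6 columns of values was not used.

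The 7 members and all related lists were chosen with earlier results of these data known, so no list is independent evidence. Counts were tested with edgeR 4.0.16 in R 4.3.3 (trimmed mean of M values, filterByExpr with a minimum count of 10 and total of 15, glmQLFit and glmQLFTest, age alone as the term), with Benjamini-Hochberg adjustment over 10124 genes and a threshold of 0.05. SEs were taken from the F statistic. Fold changes are adult over P10. Ratios to Gcg used counts plus 0.5. The 17 lists held 156 entries, of which 146 had a row. Named in each list were the 2 smallest p among calls in the commoner direction and the smallest in the other, with exceptions stated. Levels of different genes were not compared, as no transcript lengths were used. Promoter sequences and gene order came from RefSeq GRCr8, and all 7 members and Gcg matched by symbol. DESeq2 1.42.0, other scalings and filters, a replicate block and leaving out each library were alternatives. The test was checked on simulated counts. Values of some genes in the lists are not reported here.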

Additional observations from a re-analysis of the deposited data

How the results depend on the processing

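Over the 7 genes and 13 alternative fits each, 78 of 91 log2 fold changes kept their direction and their side of the threshold, 3 lost a call, 4 gained one and 6 turned sign. With library totals alone, 4 members were lower, 24 genes of the related lists were lower and 13 higher (13 and 23 as reported), 3 neighbours were lower and 0 higher, and the values that turned were Irx1 (-0.34), Irx2 (-0.30), Gc (-0.24), Baz2a (-0.040), B4galt6 (-0.22) and Slc4a4 (-0.14); that scaling moved the whole table, with 344 genes higher and 3598 lower. Leaving out 1 library at a time gave 1 to 3 members lower (3 without P10 replicate 1 or adult replicate 2, 1 without adult replicate 3), 0 to 1 neighbours higher and 1 to 2 lower, and a range of log2 fold changes of -0.014 to 0.29 for Irx1 (negative without P10 replicate 3) and of -0.25 to 0.71 for Irx2 (-0.22 without P10 replicate 1, -0.25 without adult replicate 1). With a filter of 5 CPM in 3 libraries 0 neighbours were lower, since Fap was no longer tested, and with DESeq2, and with totals without the insulin genes, 0 were higher. The mean of 5 alpha-cell genes as reference gave 0 ratios higher and 4 lower without overlap. No member was higher in any of these fits.

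The replicate numbers 1 and 3 occur at both ages, but the labels name no shared litter or day, and deviations of same-numbered libraries were uncorrelated (r = -0.0239 and -0.00489). With the number as a replicate block, 0 members were lower (Dpp4 -2.14, FDR 0.116; Smarca1 -1.73, FDR 0.0804; range of the Dpp4 FDR over all alternatives 0.000727 to 0.116), 0 neighbours were higher, the Fap call was lost (FDR 0.0551) and Ocrl passed as lower (FDR 0.0485), and 8 genes of the related lists were lower, with 679 higher and 729 lower over the whole table; P10 replicate 4 and adult replicate 2 have no partner there. The cause of each change was not tested. Low read counts limit Ttr and Dpp4 most, with 2 to 12 reads in each adult library. Levels per transcript length were not run.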
